A study of Homo sapiens with 8 samples.

Results

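The genes described here are regulators of the tumor suppressor p53 and genes that p53 is known to induce, 31 named genes listed by their roles. They comprised 5 regulators of p53, among them the ubiquitin ligase UBE3A, 7 target genes of cell cycle and growth control, 10 of apoptosis and survival, 4 of DNA repair and nucleotide supply and 5 of metabolism and oxidant control. A gene was represented by the probe set annotated with that gene alone that had the highest mean signal, among probe sets that reached 500 on any of the 8 arrays. By this rule 27 of the 31 genes were measured, out of 8961 measured genes in all. BTG2, an antiproliferative gene, and FDXR, a mitochondrial ferredoxin reductase, had no probe set of their own in the annotation used. The probe set of BBC3, a proapoptotic BCL2 family gene, was shared with other genes, and the 3 probe sets of the stress kinase PLK3 reached at most 339.7. Values of the gene that encodes p53 are not reported here. The measured gene nearest to the filter on the inner side was AEN, whose highest signal was 1372.

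Cells of BOKU and SKG-I, 2 established human cervical cancer lines, were lipofected with an siRNA against IGF2R (siIGF2R), the receptor for mannose 6-phosphate and IGF-2, or with a control siRNA (siCtrl), and total RNA was taken after 72 h. The 4 groups were thus BOKU siIGF2R, BOKU siCtrl, SKG-I siIGF2R and SKG-I siCtrl, and all of them had gone through lipofection at 10 nM siRNA. Each group was 1 RNA sample run on 2 GeneChip arrays, so the spread between duplicate arrays is technical and the cell lines are the only replicates. The identity of the IGF2R siRNA on the arrays is not given in the sources used here, nor is it known from these data whether p53 protein changed.

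As background, p53 is a transcription factor that is kept at a low level by ubiquitin ligases and is stabilized after DNA damage, nutrient stress or ribosomal stress. It then binds pairs of a short consensus sequence near its target genes, which arrest the cell cycle, repair DNA, restrain growth signaling or start apoptosis. In cervical cells that carry a high-risk papillomavirus, the viral E6 protein recruits UBE3A, also known as E6AP, to p53 and marks it for degradation, so that p53 is scarce although its gene is usually intact.

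The arrays had median signals of 65.3 to 74.8 and a common trimmed mean of 500.1, and the ratios of 3′ to 5′ signal were 1.16 to 1.30 for ACTB and 0.91 to 0.99 for GAPDH. Between duplicates, the standard deviation of the log2 differences over the 27 genes was 0.155 to 0.226. IGF2R signals were 641 and 645 on the BOKU siIGF2R arrays, against 7288 and 6710.5 with siCtrl, and 257 and 295 on the SKG-I siIGF2R arrays, against 4120 and 3838 with siCtrl, a log2 change of −3.65 (SE 0.21, limma adjusted p = 0.0221; SE is the standard error). In bulk RNA of this kind, fewer cells of a type and less RNA per cell cannot be told apart. Of 8 epithelial markers with a probe set of their own, KRT7, KRT8, KRT18 and KRT19 reached the filter in both lines, EPCAM only in SKG-I, CDH1 only on the SKG-I siIGF2R arrays and KRT5 and KRT14 in neither line. Of the 6 that reached it, 0 passed the adjusted limma test, 0 were higher and 3, KRT8, KRT18 and KRT19, were lower with siIGF2R in both lines, and 2 of the 6 were lower at an unadjusted p under 0.05. CDH1 had 619 and 652 in SKG-I siIGF2R cells, against 143 and 173 with siCtrl, and KRT19 had 1968 and 1939 in SKG-I siIGF2R cells, against 7024 and 7222 with siCtrl. The part of such marker differences in the results was not tested. COL1A1, a fibroblast collagen, reached the filter in both lines and COL3A1 in SKG-I, while 0 of 5 immune and 0 of 4 endothelial markers did.

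After siIGF2R, 2 of the 27 genes rose and 0 fell by limma, in a model with a term for the cell line and with Benjamini-Hochberg adjustment over all 16517 kept probe sets at a threshold of 0.05. The genes that rose were GDF15, a secreted stress cytokine of the TGF-beta family, and SESN1, a sestrin that restrains mTORC1. Over all measured genes 2.63% rose and 2.37% fell. At an unadjusted p under 0.05, 8 of the 27 genes were higher and 1 was lower, against 14.4% and 14% of all genes. The 8 were GDF15, SESN1, TRIAP1, TNFRSF10B, AEN, RRM2B, TIGAR and UBE3A, and the lower gene was FBXO22. Within a line, 1 gene of the 27 was at least 2-fold higher in BOKU (SESN1), against 8.02% of all genes, and 3 in SKG-I (SESN1, GDF15 and AEN), against 8.28%, while 0 were 2-fold lower in either, against 5.06% in BOKU and 6.42% in SKG-I. SESN1 was the only gene of the 27 at least 2-fold higher in each line, against 3.18% of all genes, and 0 were at least 2-fold lower in each line, against 2.34%. Without BOKU siCtrl array 1 the counts were 4 by limma, with TRIAP1 and TNFRSF10B added at adjusted p = 0.0311 and 0.0469, and 2 by fold, and without BOKU siIGF2R array 2 limma gave 3.

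The test rests on 2 cell lines, with 1 residual and 4.82 prior degrees of freedom in limma. GDF15 and SESN1 kept their calls when any of the 8 arrays was left out, with adjusted p of 0.00976 to 0.0435 for GDF15 and 0.0122 to 0.0449 for SESN1. Both calls were lost in limma when the variance was not allowed to follow signal (adjusted p = 0.115 for GDF15 and 0.113 for SESN1). They were also lost when the cell line was left out of the model, and by an unpaired t-test on the same 4 RNA samples. The methods name an unpaired t-test after a 2-fold selection, and the study listed probes common among the lines. Pooling both lines in that t-test, with no cell line term, was a choice made here. Run within each line over the arrays with the 2-fold selection, it kept SESN1 in both lines. That setting counts duplicate arrays of 1 RNA as replicates.

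The promoters of the genes that rose are shown because p53 acts on its targets through sequences of this kind, here from RefSeq on build GRCh38.p14, as the 250 bases before the start site. Capitals mark a match to the p53 consensus half-site, a 10-base palindrome of purines, a C, A or T bases, a G and pyrimidines, which therefore reads alike on both strands and of which CATG can be the center. GDF15 lies on the plus strand at chr19:18385908-18386157, and its promoter held no match. SESN1 is listed with 3 start sites on the minus strand, and the promoter of the third, chr6:109008989-109009238, held a match that began 49 bases before the start. Promoters at its first and second start sites held no match and are not printed.
GDF15: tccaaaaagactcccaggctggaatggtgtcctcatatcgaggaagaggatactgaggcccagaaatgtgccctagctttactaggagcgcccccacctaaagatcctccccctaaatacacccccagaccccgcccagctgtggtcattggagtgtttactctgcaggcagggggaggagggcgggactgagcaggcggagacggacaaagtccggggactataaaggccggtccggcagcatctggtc
SESN1: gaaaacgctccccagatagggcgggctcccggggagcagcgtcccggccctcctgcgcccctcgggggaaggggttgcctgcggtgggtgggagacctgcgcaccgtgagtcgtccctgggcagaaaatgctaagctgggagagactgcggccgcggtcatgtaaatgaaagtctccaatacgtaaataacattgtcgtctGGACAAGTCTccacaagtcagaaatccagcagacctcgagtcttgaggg

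Promoters were found by symbol for 25 of the 31 genes, in 38 windows of 300 bases that include 50 bases after the start, and FBXO22, GADD45A, TNFRSF10B, TP53INP1, PHLDA3 and RRM2B were not in the table. The half-site was matched in 6 of these 38 windows and in 6.63% of all 35116 promoter windows, and CATG in 11 of 38 and 54.92% of all. Besides SESN1, the genes with a match were AEN, FAS, PLK2, DDB2 and FDXR, and each match is printed within 30 bases, except that of FDXR, which was not measured. These matches are letters in a window and do not show binding. In AEN (chr15:88621301-88621330, plus strand) the match began 34 bases before the start, in FAS (chr10:88991304-88991333, plus strand) 122 and in PLK2 (chr5:58460194-58460223, minus strand) 132 bases before it. In DDB2 (chr11:47214974-47215003, plus strand) 2 matches lay side by side just after the start, the arrangement of a full p53 site.
AEN: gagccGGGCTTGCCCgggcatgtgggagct
FAS: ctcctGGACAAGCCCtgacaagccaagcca
PLK2: ggacaAGACTTGCTTcccggccacgcgcgc
DDB2: ggtttGAACAAGCCCtGGGCATGTTTggcg
Of these 5 measured genes with a match, SESN1 rose, AEN had log2 changes of 0.51 in BOKU and 1.08 in SKG-I, FAS of −0.014 and 0.98, PLK2 of −0.19 and −0.30 and DDB2 of −0.54 and −0.01. The genes with a half-site thus had changes of either sign.

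**Figure D1:**
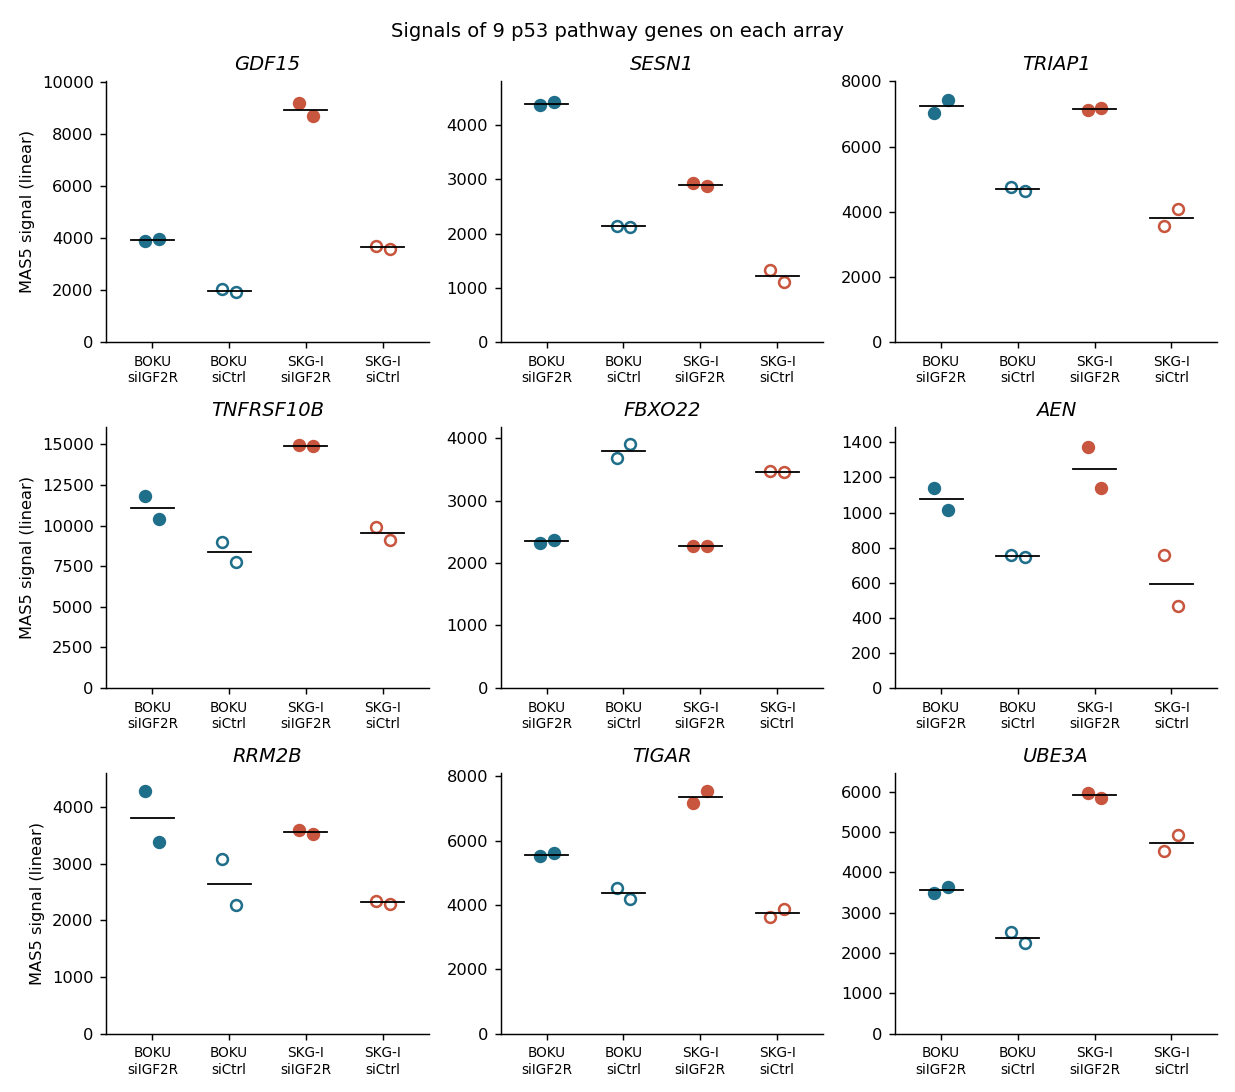
MAS5 signals (linear scale from 0) of the 9 genes with an unadjusted limma p under 0.05, on each of the 8 arrays; filled points are siIGF2R and open points siCtrl arrays, and bars are the geometric means of 2 arrays. In both lines the siIGF2R arrays lie above the siCtrl arrays in 8 genes and below them in FBXO22.

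Among the regulators, UBE3A mRNA was higher and FBXO22 mRNA lower with siIGF2R in both lines, without passing the adjusted test. MDM2 differed little by its brightest probe set. UBE3A signals were 3477 and 3630.2 in BOKU siIGF2R cells, against 2525 and 2246 in BOKU siCtrl cells. In SKG-I they were 5975 and 5846 with siIGF2R, against 4537 and 4913 with siCtrl. The groups did not overlap in either line, and SKG-I had the higher signal with either siRNA. The log2 change was 0.58 in BOKU and 0.32 in SKG-I, and 0.45 over both lines (SE 0.17, adjusted p = 0.166 from limma). The other 3 kept probe sets of UBE3A were also higher in each line, by 0.62 to 0.69 in BOKU and 0.36 to 0.69 in SKG-I.

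FBXO22, an F-box subunit of a ubiquitin ligase that acts on methylated p53 and is itself a p53 target, had signals of 2324 and 2375 in BOKU siIGF2R cells, against 3675 and 3899 with siCtrl. In SKG-I its signals were 2265 and 2273 with siIGF2R, against 3469 and 3457 with siCtrl. The duplicates lay close together and the groups were well apart in both lines, with a log2 change of −0.65 over both (SE 0.17, adjusted p = 0.0884 from limma). FBXO22 also had a probe set of the opposite direction, at 1.30 in BOKU and 0.46 in SKG-I, while a further pair of probe sets was lower in both lines, at −0.32 and −0.23 in BOKU and −0.46 and −0.54 in SKG-I. With all of its measured probe sets averaged, the change of FBXO22 over both lines was −0.14 (adjusted p = 0.663 from limma).

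MDM2, the main ubiquitin ligase of p53 and also its target, had signals of 11821 and 11384 in BOKU siIGF2R cells, against 11781 and 10361 with siCtrl. In SKG-I the MDM2 signals were 11272 and 10199 with siIGF2R, against 10865 and 10169 with siCtrl. These groups overlapped in both lines, and the log2 change over both was 0.05 (SE 0.13, adjusted p = 0.825 from limma). Its other 6 kept probe sets ranged over log2 changes of −0.29 to 0.02 in BOKU and −0.45 to 0.40 in SKG-I. Some of these had arrays that did not overlap and that differed in opposite directions. Their changes in BOKU and SKG-I were −0.29 and 0.36, −0.19 and 0.40, and −0.23 and 0.13. The rest overlapped in BOKU. MDM4, a relative of MDM2 that binds p53 and holds its activity down, had signals of 1341 and 1178 in BOKU siIGF2R cells, against 1108 and 1176 with siCtrl. In SKG-I cells it had 1105 and 1541 with siIGF2R, against 2012 and 2006 with siCtrl, so that its log2 difference was 0.14 in BOKU, where the groups barely missed overlapping, and −0.62 in SKG-I. A second MDM4 probe set showed the same signs, at 0.41 and −0.42. The phosphatase PPM1D, which switches off p53 signaling, was at −0.046 in BOKU, where the arrays overlapped, and −0.28 in SKG-I, where they did not.

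**Figure D2:**
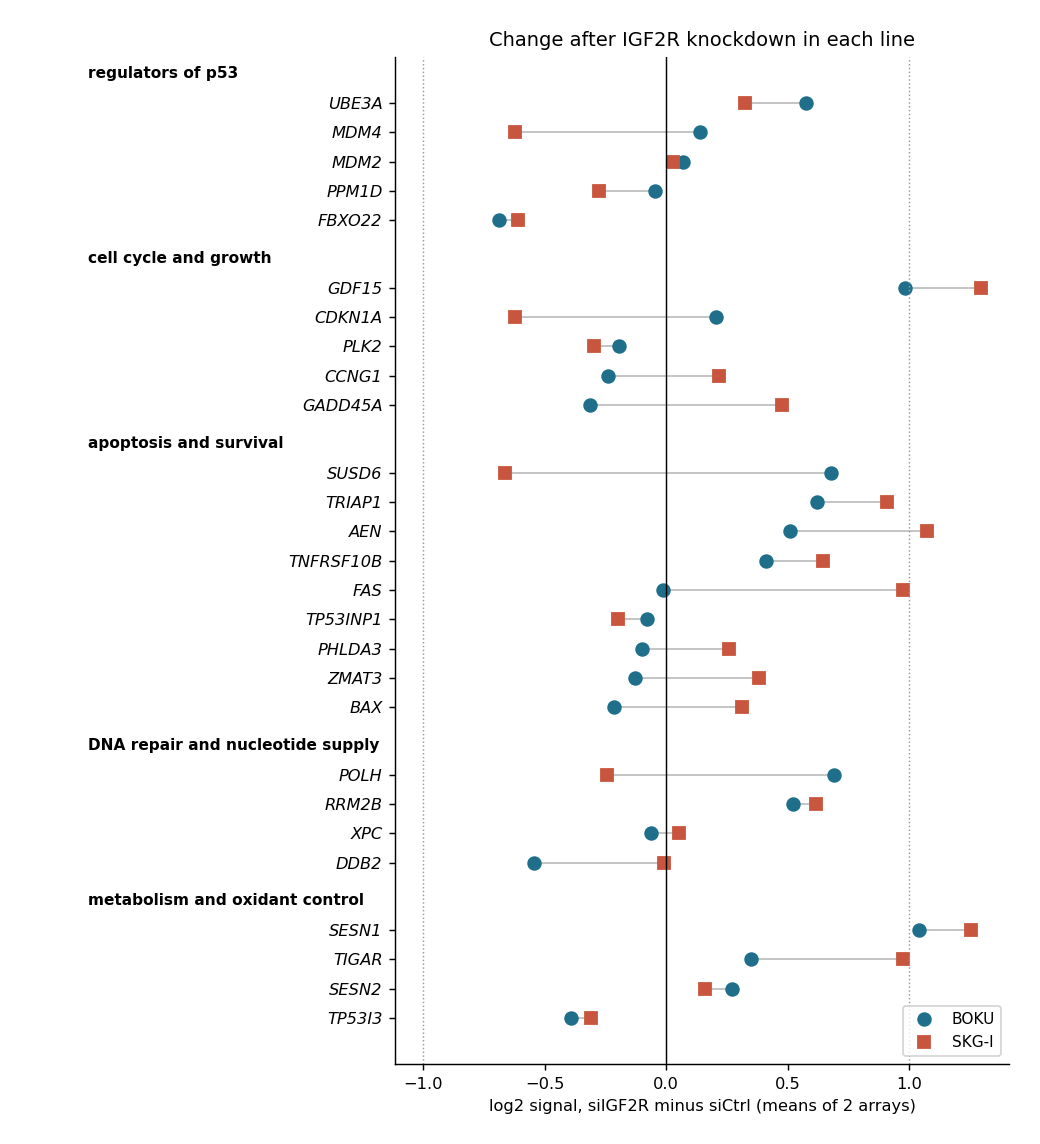
Log2 change of signal (siIGF2R minus siCtrl, means of 2 arrays) for the 27 measured genes by role; circles are BOKU, squares are SKG-I, and dotted lines mark a 2-fold change. SESN1 lies beyond 2-fold in both lines, while genes such as SUSD6, POLH and MDM4 lie on opposite sides of 0.

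Of the 5 measured genes of cell cycle and growth control, GDF15 rose and the other 4 did not pass the test. GDF15 signals were 3873 and 3956 in BOKU siIGF2R cells, against 2028 and 1936 with siCtrl. SKG-I had 9207 and 8692 with siIGF2R, against 3715 and 3573 with siCtrl. No siIGF2R array of GDF15 was near the siCtrl arrays of its line, and the signals were 1.98 times as high with siIGF2R in BOKU and 2.46 times in SKG-I. Over both lines the log2 change was 1.14 (SE 0.17, adjusted p = 0.034 from limma). GDF15 was the only one of the 27 genes represented by a probe set of the _x_at class, whose probes may also match unrelated transcripts.

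CDKN1A, the cyclin-dependent kinase inhibitor that carries out much of the arrest by p53, did not follow GDF15. Its signals were 5975 and 7364 in BOKU siIGF2R cells, against 5186 and 6389 with siCtrl, and these arrays overlapped. In SKG-I, CDKN1A had 10194 and 9900 with siIGF2R, against 15057 and 15892 with siCtrl, so that both siIGF2R arrays were lower. Its log2 difference was thus 0.21 in BOKU but −0.62 in SKG-I, and limma gave an adjusted p of 0.572 over both. PLK2, a polo-like kinase of the centriole cycle, was slightly lower on the siIGF2R arrays of both lines, at −0.19 and −0.30 (adjusted p = 0.291 from limma). CCNG1, a cyclin that feeds back on p53 through MDM2, had signals of 14397 and 17216 in BOKU siIGF2R cells, against 18429 and 18768 with siCtrl, and of 11433 and 11978 in SKG-I siIGF2R cells, against 9873 and 10279 with siCtrl. Its groups did not overlap, with a log2 difference of −0.24 in BOKU but 0.22 in SKG-I. GADD45A, which binds PCNA and stress kinase activators, had signals of 6540 and 7524 in BOKU siIGF2R cells, against 8406 and 9028 with siCtrl, and of 6053 and 5689.6 in SKG-I siIGF2R cells, against 4196 and 4239 with siCtrl. Its arrays did not overlap in either line, and they differed in opposite directions.

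Of the 9 measured genes of apoptosis and survival, 0 passed the adjusted limma test and 3, all higher, had an unadjusted p under 0.05. TRIAP1, a small mitochondrial protein that protects cells from apoptosis, had 7029.7 and 7436 in BOKU siIGF2R cells, against 4773 and 4631 with siCtrl. SKG-I siIGF2R cells had 7122 and 7172, against 3562 and 4072 with siCtrl. The groups were far apart in both lines, with log2 changes of 0.62 and 0.91, and the change over both was 0.76 (SE 0.16, adjusted p = 0.0602 from limma).

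TNFRSF10B, a death receptor for the ligand TRAIL, had signals of 11837 and 10414 in BOKU siIGF2R cells, against 8989 and 7761 with siCtrl. In SKG-I it had 14958 and 14875 with siIGF2R, against 9937 and 9142 with siCtrl. Its groups did not overlap in either line, and the log2 change was 0.53 (SE 0.14, adjusted p = 0.0819 from limma). Both of its other kept probe sets were higher too, by 0.32 and 0.33 in BOKU and 0.64 and 0.60 in SKG-I. AEN, a nuclease of apoptotic cells, had 1140 and 1012 in BOKU siIGF2R cells, against 759.8 and 747 with siCtrl, and 1372 and 1139 in SKG-I siIGF2R cells, against 755 and 466 with siCtrl. AEN was 2.11 times as high with siIGF2R in SKG-I and 1.43 times in BOKU, with an adjusted p of 0.107 from limma, and its SKG-I siCtrl arrays were the most unequal duplicates of the 27 genes, 0.70 apart in log2 signal. Without the lower of these, SKG-I siCtrl array 2, the change of AEN over both lines was 0.62 in place of 0.79, with an adjusted p of 0.144 from limma.

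FAS, the receptor for FAS ligand, gave unlike values in the lines. In BOKU its signals were 7291 and 7146 with siIGF2R, against 7427 and 7148 with siCtrl, and the arrays overlapped. In SKG-I siIGF2R cells FAS had 3784 and 3888, against 1960.4 and 1938 with siCtrl, 1.97 times as high. Its other 3 kept probe sets were alike, at 0.04 to 0.14 in BOKU and 0.89 to 1.05 in SKG-I, and the sign of the small BOKU difference depended on how the arrays were scaled. Over both lines FAS had an adjusted p of 0.285 from limma, and the difference between the lines was not tested.

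SUSD6, a membrane protein induced by DNA damage that slows growth, gave the widest contrast between the lines. It had signals of 1225 and 1229.6 in BOKU siIGF2R cells, against 758 and 775 with siCtrl. In SKG-I its signals were 979 and 1010.4 with siIGF2R, against 1609 and 1543 with siCtrl. Duplicates were close and no groups overlapped, and SUSD6 was 1.60 times as high with siIGF2R in BOKU and 0.631 times in SKG-I. BAX, which permeabilizes the mitochondrial outer membrane, had signals of 1856 and 2054 in BOKU siIGF2R cells, against 2134 and 2404 with siCtrl, and of 3651 and 4338 in SKG-I siIGF2R cells, against 3133 and 3273 with siCtrl. BAX was thus lower with siIGF2R in BOKU, at −0.21, and higher in SKG-I, at 0.31, with little space between the arrays, and a further probe set was at −0.11 and 0.10.

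The remaining genes of this role had small differences. ZMAT3, an RNA-binding zinc finger protein, was at −0.13 in BOKU but 0.38 in SKG-I, and its other 4 kept probe sets were mixed in sign, with the lowest at −0.75 in SKG-I. PHLDA3, an inhibitor of AKT, had −0.10 and 0.26 with its brighter probe set, and 0.63 and 0.83 with the other, which had an unadjusted p of 0.0127 and an adjusted p of 0.0966 from limma. TP53INP1, a stress-induced protein that links p53 to autophagy, had −0.078 and −0.20, its arrays overlapped in both lines, and the sign in BOKU turned with the scaling.

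Of the 4 genes of DNA repair and nucleotide supply, RRM2B had signals above siCtrl in both lines. This gene, the p53-induced small subunit of ribonucleotide reductase, had signals of 4290 and 3389 in BOKU siIGF2R cells, against 3082 and 2281 with siCtrl, and of 3597 and 3529 in SKG-I siIGF2R cells, against 2347 and 2297 with siCtrl. Its duplicates were tight in SKG-I and wide in BOKU, where the groups did not overlap but lay close. The log2 change over both lines was 0.57 (SE 0.17, adjusted p = 0.11 from limma).

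POLH, the polymerase that copies past ultraviolet lesions, had 1685 and 1632 in BOKU siIGF2R cells, against 1046 and 1010.4 with siCtrl. In SKG-I it had 923 and 929 with siIGF2R, against 1095 and 1097 with siCtrl. Both lines showed groups apart, with POLH higher with siIGF2R in BOKU and lower in SKG-I. The other 3 kept POLH probe sets were higher in BOKU as well, by 0.10 to 1.08, but at 0.09 to 0.33 in SKG-I they did not share the lower value. DDB2, which recognizes ultraviolet lesions, was at −0.54 in BOKU and at −0.01 in SKG-I, where the sign turned with the scaling, and XPC, the other lesion sensor of nucleotide excision repair, had −0.063 and 0.052 with overlapping arrays in both lines.

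Of the 4 measured genes of metabolism and oxidant control, SESN1 rose. SESN1 signals were 4375 and 4421 in BOKU siIGF2R cells, against 2146 and 2130.4 with siCtrl. In SKG-I they were 2927 and 2884 with siIGF2R, against 1329 and 1113 with siCtrl. In each line both siIGF2R arrays were well above both siCtrl arrays, and BOKU was higher than SKG-I with either siRNA. The log2 change was 1.04 in BOKU, 1.26 in SKG-I and 1.15 over both (SE 0.18, adjusted p = 0.0377 from limma). SESN1 is in the list of changed genes that the study took from these same arrays, so its change here is not independent evidence. That list gives SESN1 a larger fold change against parental cells than against siCtrl. Parental cells are not among the arrays used here, so the siCtrl level could not be set against theirs.

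SESN2, the related sestrin that senses leucine, had log2 differences of 0.27 and 0.16, and its SKG-I arrays overlapped and were all under 500. TIGAR, a phosphatase that lowers glycolytic flux and diverts sugar to NADPH production, had 5538 and 5604 in BOKU siIGF2R cells, against 4546 and 4198 with siCtrl, and 7188 and 7534 in SKG-I siIGF2R cells, against 3624 and 3862 with siCtrl. Its groups did not overlap, and TIGAR was 1.28 times as high with siIGF2R in BOKU and 1.97 times in SKG-I, with an adjusted p of 0.11 from limma. TP53I3, a quinone oxidoreductase linked to oxidant production, was at −0.39 in BOKU and −0.31 in SKG-I, with no overlap in either line and an adjusted p of 0.247 from limma.

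The genes did not share a direction. In BOKU their log2 changes lay between −0.69 and 1.04 with a median of 0.07, against a median of 0.027 over all measured genes. In SKG-I they lay between −0.66 and 1.30 with a median of 0.22, against −0.029 over all. In BOKU the arrays did not overlap and were higher with siIGF2R for 12 genes, against 40.4% of all genes, and lower for 7, against 35.8%. In SKG-I they were higher for 14, against 39.6%, and lower for 8, against 43.6%. Of the 27 genes, 10 were higher and 6 lower in both lines, against 35.8% and 35.7% of all genes, 7 were higher in SKG-I and lower in BOKU, against 12.3%, and 4 were higher in BOKU and lower in SKG-I, against 16.2%. The sign was the same in both lines for 16 genes, 59.3% of them, against 71.5% of all genes. Groups of arrays did not overlap and were higher in both lines for 8 genes, against 26.4% of all genes, and lower in both for 3, FBXO22, PLK2 and TP53I3, against 25.2%. For 6 genes, MDM4, CCNG1, GADD45A, BAX, SUSD6 and POLH, they did not overlap and differed in opposite directions, against 13.3% of all genes. By role, the median changes in BOKU and SKG-I were 0.07 and −0.28 for the regulators, −0.19 and 0.22 for cell cycle and growth, −0.014 and 0.38 for apoptosis and survival, 0.23 and 0.021 for DNA repair and 0.31 and 0.57 for metabolism.

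**Figure D3:**
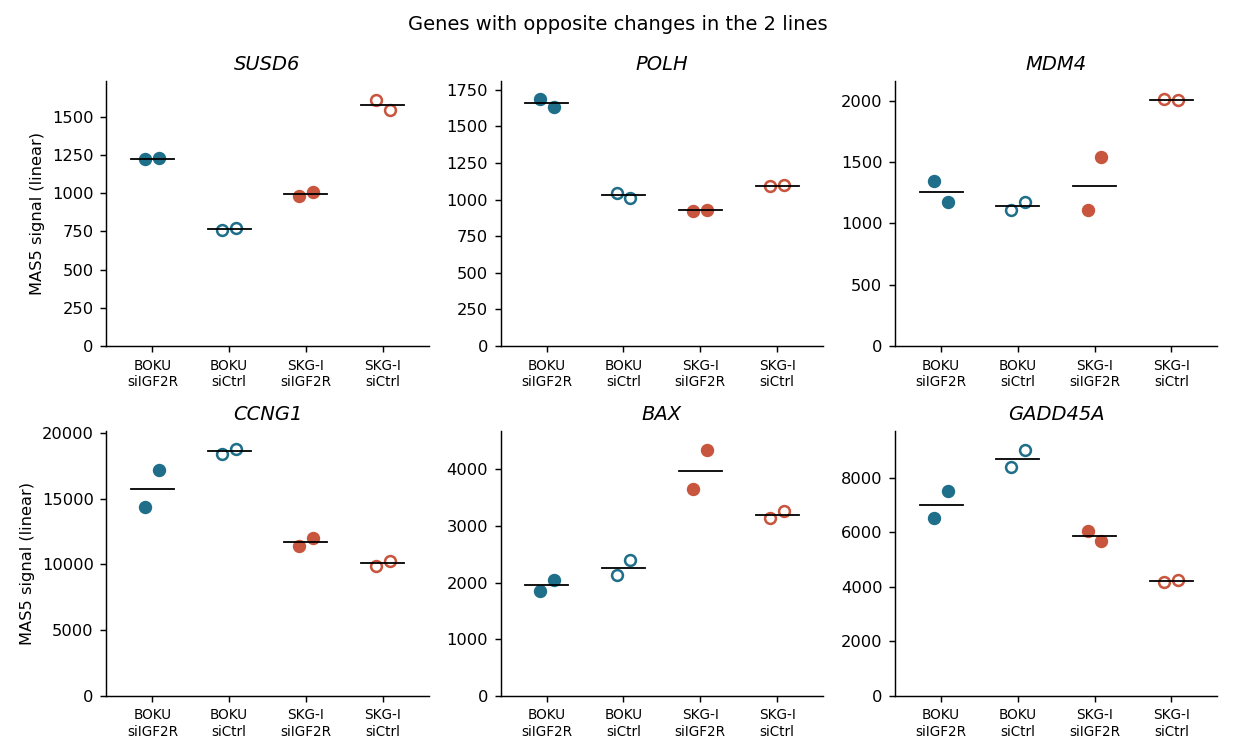
MAS5 signals (linear scale from 0) on each array of the 6 genes whose duplicate arrays did not overlap in either line and whose changes had opposite signs; filled points are siIGF2R and open points siCtrl arrays, and bars are geometric means of 2 arrays. SUSD6, POLH and MDM4 were higher with siIGF2R in BOKU and lower in SKG-I, and CCNG1, BAX and GADD45A the reverse.

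Further p53 pathway genes outside the 31 were counted in the same way. Of 45 measured genes among 54 other p53 targets, 2 rose and 0 fell by limma, against 2.63% and 2.37% of all genes, while 7 were higher and 6 lower at an unadjusted p under 0.05, against 14.4% and 14%. Their median change was 0.101 in BOKU and 0.056 in SKG-I. The genes that rose were DRAM1, a lysosomal membrane protein of p53-induced autophagy, with a log2 change of 1.92 (SE 0.24, adjusted p = 0.025), and TAP1, a peptide transporter of antigen presentation, with 1.25 (SE 0.22, adjusted p = 0.0434 from limma). DRAM1 signals were 4184 and 4684 in BOKU siIGF2R cells, against 1521 and 1555 with siCtrl, and 6908 and 6749 in SKG-I siIGF2R cells, against 1379 and 1388 with siCtrl. Among 35 measured of 42 other modifiers and cofactors of p53, limma called 0 in either direction, and 4 were higher and 4 lower at an unadjusted p under 0.05, against the same 14.4% and 14% of all genes.

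The lines were also compared with each other. With siCtrl, 8 of the 27 genes were at least 2-fold higher in BOKU than in SKG-I, against 15.7% of all genes, and 2 were at least 2-fold lower, against 19%. With 1 RNA sample per line and siRNA these differences have no test. PLK2 was 4.36 times as high in BOKU as in SKG-I, FAS 3.74, ZMAT3 2.85, SESN2 2.81, TP53INP1 2.73, TP53I3 2.40, GADD45A 2.07 and XPC 2.03 times. In the other direction, CDKN1A was 2.69 and SUSD6 2.06 times as high in SKG-I. Which genes pass 2-fold depends on the probe set. UBE3A was 1.98 times as high in SKG-I, just short of it, and 1.965 to 2.33 times with its other kept probe sets. The other kept probe sets of ZMAT3 were 1.47 to 2.93 times as high in BOKU. The median difference, BOKU minus SKG-I, was 0.27 with siCtrl, against −0.082 over all genes.

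With siIGF2R, 4 genes were at least 2-fold higher in BOKU, PLK2, SESN2, TP53INP1 and TP53I3, with ZMAT3 just short of it, against 14% of all genes, and 2 were at least 2-fold lower, GDF15 and BAX, against 14.7%. FAS was 1.88 times as high in BOKU with siIGF2R, against 3.74 times with siCtrl, and GADD45A 1.20 times, against 2.07 times. CDKN1A was 1.51 times as high in SKG-I with siIGF2R, against 2.69 times with siCtrl. Other genes lay farther apart with siIGF2R than with siCtrl. BAX was 2.04 times as high in SKG-I with siIGF2R, against 1.41 times with siCtrl, and GDF15 2.285 times, against 1.84 times. POLH was 1.79 times as high in BOKU with siIGF2R, but 1.07 times as high in SKG-I with siCtrl. The median size of the line difference, without its sign, was 0.43 with siIGF2R and 0.82 with siCtrl over the 27 genes, and 0.59 with siIGF2R and 0.67 with siCtrl over all measured genes.

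**Figure D4:**
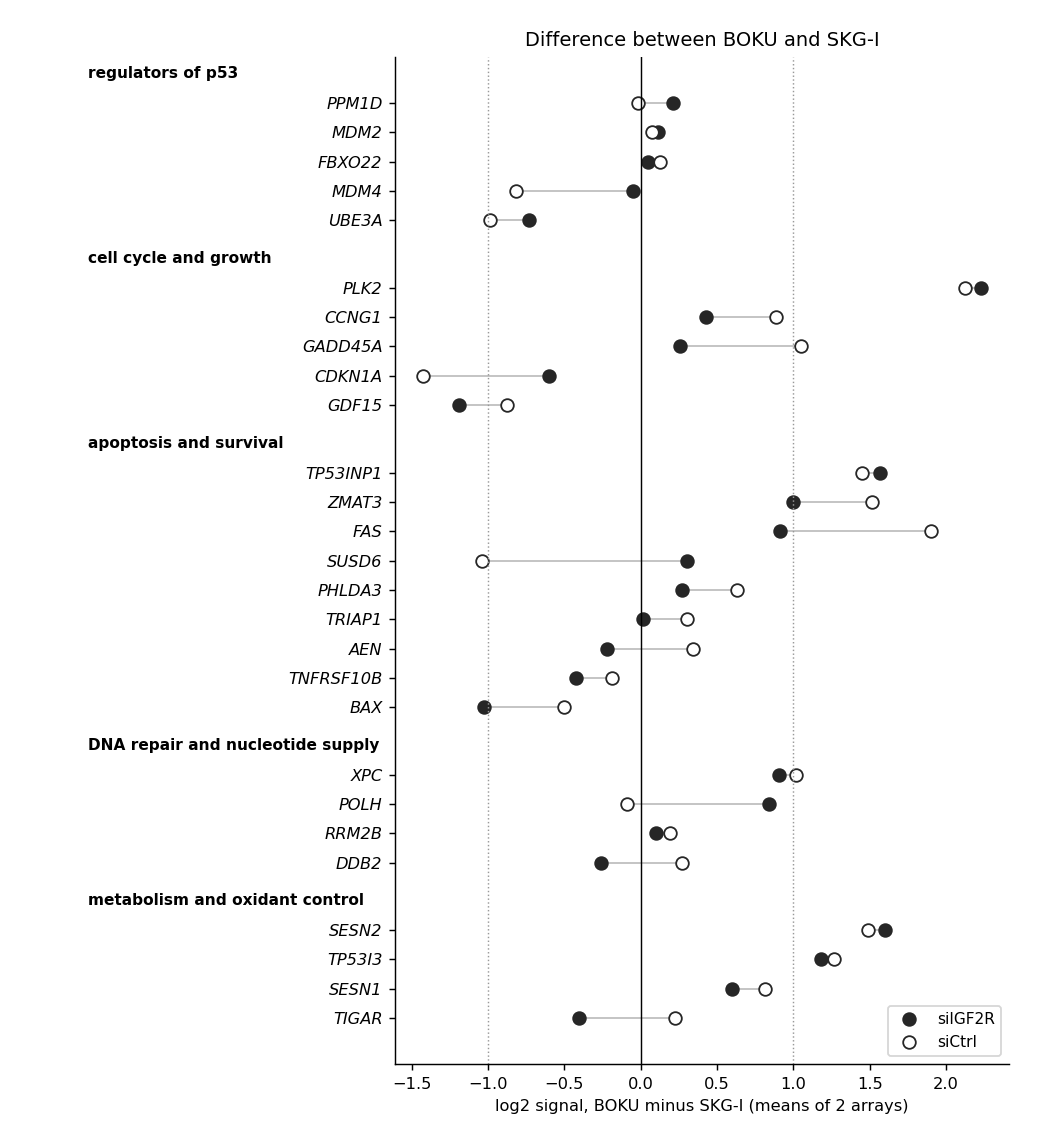
Log2 difference in signal between the lines (BOKU minus SKG-I, means of 2 arrays) for the 27 genes by role, with filled circles for siIGF2R and open circles for siCtrl; dotted lines mark a 2-fold difference. PLK2 lies farthest to the right with either siRNA. FAS, GADD45A, CDKN1A and SUSD6 lie nearer to 0 with siIGF2R than with siCtrl, while POLH, BAX and GDF15 lie farther from it.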

How the data were processed

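BOKU and SKG-I cells were measured on GeneChip U133 Plus 2.0 arrays, 8 arrays of 4 RNA samples. The deposited values are 1 intensity per probe set, a MAS5 signal on a linear scale that the authors computed from the scans and scaled to a common level; background subtraction was done before deposition. Signals were used as deposited, on a log2 scale with no constant, and duplicate arrays were averaged. Of 54675 probe sets, 62 control probe sets were removed and 16517 reached 500 on at least 1 array. R 4.3.3 and limma 3.58.1 were used, with a cell line term, a variance trend and a two-sided test. The fit was also run on simulated data with normal noise of the spread it had estimated. Such data cannot check that spread. Members were named with their roles; called genes, genes changed at least 2-fold in a line and UBE3A were given on every array, and called genes of the other lists by size. Signals of further genes on every array were given after their values had been seen. The genes and lists were chosen with earlier results of these data known. Promoters came from RefSeq. Precision is limited by the small number of arrays and RNA samples. Alternatives covered the filter, scaling, a floor, an added constant, the variance model, the block, probe set choice, the fold threshold, the methods' t-test and leaving out each array.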

Additional observations from a re-analysis of the deposited data

Results flagged for a closer look

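In 6 genes every siIGF2R array lay on the opposite side of the siCtrl arrays in BOKU and in SKG-I. The differences between the lines were not tested, since each line had 1 RNA sample per siRNA. The log2 change in BOKU minus that in SKG-I was 1.34 for SUSD6, 0.93 for POLH and 0.76 for MDM4, which were higher with siIGF2R in BOKU and lower in SKG-I. It was −0.79 for GADD45A, −0.53 for BAX and −0.46 for CCNG1, which were lower with siIGF2R in BOKU and higher in SKG-I. The other 3 measured probe sets of POLH did not share its lower value in SKG-I. Duplicate arrays of 1 RNA were compared here, and 13.3% of all measured genes met the same condition.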

How the results depend on the processing

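No count or median that was recomputed turned its direction. Nor did the change over both lines of the genes with an unadjusted limma p under 0.05, the only genes for which it was followed. The small changes of FAS and TP53INP1 in BOKU and of DDB2 in SKG-I changed sign with the scaling. The count of 2 genes that rose became 0 with no variance trend and 0 with no cell line term. It was also 0 by the unpaired t-test pooled over both lines, after Benjamini-Hochberg adjustment. It became 1 without probe sets of the _x_at class, an alternative added after seeing the data that leaves GDF15 out. Only that class was removed. Leaving out each array gave 2 to 4 genes that rose and 0 that fell. With the 8 arrays as separate samples, which counts duplicates of 1 RNA as replicates, 8 rose and 3 fell with no replicate block. With each combination of cell line and replicate number as a block, 8 rose and 3 fell, and UBE3A had an adjusted p of 0.0121 from limma. The labels tie nothing to the array numbers, and deviations of arrays with the same number correlated at −0.006 to 0.126. Pooled here over the 4 RNA samples without a cell line term, the unpaired t-test at an unadjusted p under 0.05 called 2 genes higher, TRIAP1 and RRM2B. It called 1 lower, FBXO22, and neither GDF15 nor SESN1. Run within each line over the arrays, with the 2-fold selection that the methods state, the same t-test kept 1 gene higher in both lines, SESN1. That setting counts duplicates of 1 RNA as replicates. At 1.5-fold, 3 genes were higher and 1 was lower in both lines; with median scaling 0 were 2-fold higher, and leaving out each array gave 1 to 2. The median change in BOKU, 0.07, was 0.028 with no filter or a filter at 250 (added later), 0.029 with median scaling, 0.15 with probe sets of a gene averaged and 0.043 to 0.07 with an array left out, and that in SKG-I was 0.139 to 0.216 (lowest without SKG-I siCtrl array 2). The median siCtrl difference, BOKU minus SKG-I, was 0.192 to 0.355 with an array left out. TRIAP1 passed with 64 added to each signal (adjusted p = 0.0435), without BOKU siIGF2R array 2 (0.0429), without BOKU siCtrl array 1 (0.0311) and after subtraction of the median change in each signal class (0.0436, added later), and the range over all its alternatives was 0.00015 to 1. The cause of these differences was not tested. Signals near the filter, as in AEN and SESN2, are the least certain.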
